A study of Homo sapiens with 6 samples.

Results

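The mitochondrial ribosomal protein genes were followed in T24, an established human cell line from a bladder carcinoma, with and without MAP30. Members were all genes with a symbol of the form MRPL or MRPS and a number, and for MRPS also a closing letter A to C, that had a probe set annotated with 1 gene symbol. The rule found 74 of 18132 genes, 47 of the large subunit (MRPL) and 27 of the small subunit (MRPS) by symbol, on 164 probe sets. The rule reads symbols and no measured value, but members were chosen with earlier results of these data known. MRPL23, MRPL53 and MRPS24 had only probe sets with several symbols and are not members.

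Of the 6 Affymetrix arrays, 3 carried RNA of control cells, labelled as normal T24 cells, and 3 carried RNA of the same line after 48 hours with 10 µg/ml MAP30. All cells were grown in DMEM with fetal bovine serum, and the sources used here do not say what the control cells received. MAP30, from bitter melon, belongs to the ribosome-inactivating proteins, enzymes whose best known act is to cut a base from ribosomal RNA. The labels do not tell separate cultures from repeat preparations, and p-values therefore reflect only how these samples vary, possibly for technical reasons. The values are log2 expression, and each probe set is centred on its median over the 6 arrays. No gene can therefore be called bright or dim, levels of different genes cannot be set against each other, and for a gene with 1 probe set the arrays next to the median mirror each other around 0. For the same reason T24 identity cannot be checked from marker levels.

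Mitochondrial ribosomes translate the mRNAs of mitochondrial DNA, which encode core subunits of the respiratory chain and ATP synthase. Their RNA is made in the mitochondrion, but their proteins are encoded in the nucleus, made on cytosolic ribosomes and imported. Many of these proteins descend from those of bacterial ribosomes, and others are found only in mitochondria.

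With MAP30, more mitochondrial ribosomal protein genes were lower than higher, by small amounts. Of the 74 genes 42 fell, 18 rose and 14 did not pass, at an adjusted p below 0.05 by limma with Benjamini-Hochberg adjustment over all 18132 genes. Of all genes 30.6% were called lower, 26.9% higher and 57.5% in either direction, against 56.8%, 24.3% and 81.1% of members. No filter was applied, so all genes include any that T24 cells do not express, which centred values cannot pick out. The median log2 fold change of MAP30 over control was -0.14 in members and -0.02 in all genes. The largest rise was that of MRPL10, at 1.93-fold. Of the members only MRPS6, at 2.11-fold lower, passed with a change of at least 2-fold (1 of 74, 1.35%), a size that 9.54% of all genes reached. The groups did not overlap in 64 members (86.5%) and in 62.6% of all genes. The SD between arrays of a group had a median over members of 0.03 in control and 0.04 with MAP30 on the log2 scale.

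**Figure D1:**
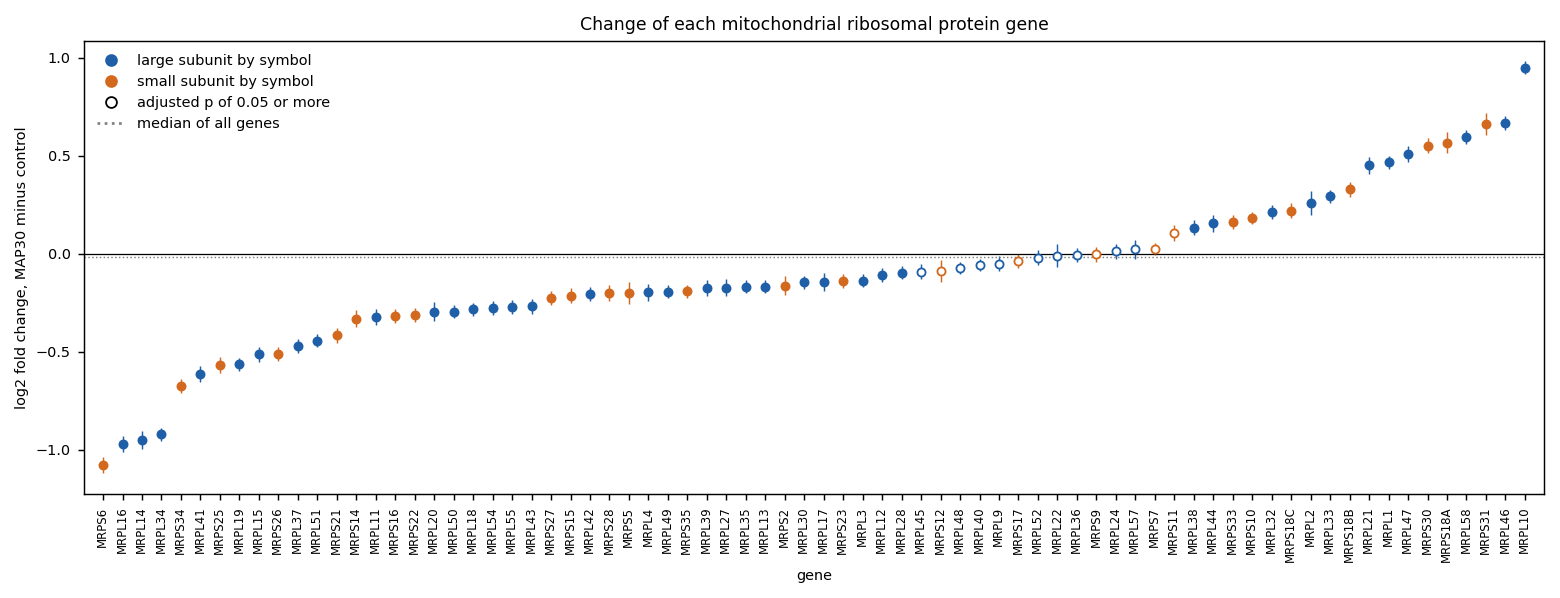
The log2 fold change of MAP30 over control is plotted for each of the 74 genes, ordered by size, with the standard error from limma (n = 3 arrays per group) as bars. Large-subunit genes are blue and small-subunit genes orange, and open points did not pass; both subunits run from clear falls, with MRPS6 at -1.08, to clear rises, with MRPL10 at 0.95.

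How many members were lower depended on the scale. The arrays hold 18 probe sets for hybridization controls and 24 for poly-A controls, both spiked-in RNA, and these moved in opposite directions with MAP30, by means of 0.21 and -0.16. With each array centred on the median of its hybridization controls, 9 members were higher and 55 lower, against 16.2% and 67% of all genes. Centred on poly-A controls, 28 were higher and 23 lower, against 47.2% and 20.8% of all genes. Rises were 30.0% of the members' calls on the deposited scale, 14.1% when centred on hybridization controls and 54.9% when centred on poly-A controls. The median of all genes moved to -0.25 and 0.14 and that of the members to -0.38 and 0.01, each scale shifting all genes by 1 constant, so that the difference between the medians (-0.13) is the same by construction. Of the 74 members, 32 (43.2%) were called in the same direction on all 3 scales, as were 37% of all genes. These were 23 falls and 9 rises. Values below are on the deposited scale.

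**Figure D2:**
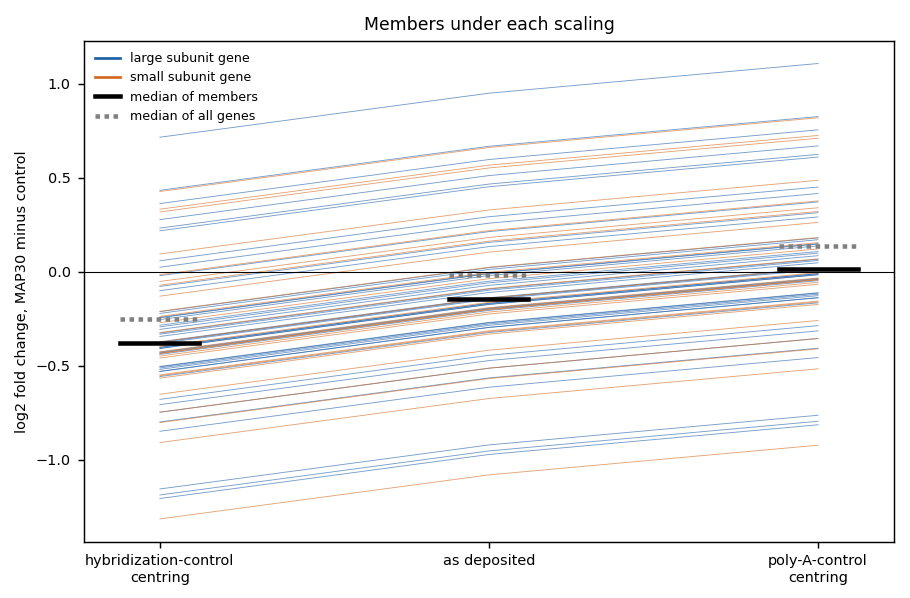
Each line is 1 of the 74 members, with its log2 fold change of MAP30 over control under hybridization-control centring, as deposited and under poly-A-control centring. Black bars mark the members' median (-0.38, -0.14 and 0.01) and dotted grey bars the median of all genes (-0.25, -0.02 and 0.14); the scales shift all genes alike and keep the order of the members.

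The ratio of 3' over 5' control probe sets, a measure of RNA integrity and amplification, also moved with the groups. It was higher with MAP30 by 0.16 on the log2 scale for ACTB and by 0.04 for GAPDH (two-sided exact permutation p = 0.1 for each, the smallest that 3 arrays against 3 allow). Its part in the members' changes was not tested.

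On the deposited scale both subunits had more falls than rises, where 30.6% of all genes were lower and 26.9% higher. Of 47 large-subunit genes 27 fell and 11 rose, with a median log2 fold change of -0.14 and an interquartile range from -0.28 to 0.02. Of 27 small-subunit genes 15 fell and 7 rose, with a median of -0.16 and an interquartile range from -0.32 to 0.13. The difference between the subunits was not tested. Centred on hybridization controls, 6 large-subunit genes were higher and 36 lower, and 3 small-subunit genes were higher and 19 lower. Of all genes 16.2% were then higher and 67% lower. Centred on poly-A controls, which shifts all genes up alike, 17 were higher and 15 lower in the large and 11 higher and 8 lower in the small subunit. Of all genes 47.2% were then higher and 20.8% lower. Rises were 69.4% of the calls over all genes, against 53.1% in the large and 57.9% in the small subunit. The mean of the centred values lay between 0.04 and 0.06 in the control arrays and between -0.07 and -0.04 in the MAP30 arrays for large-subunit genes. For small-subunit genes it lay between 0.03 and 0.07 in control and between -0.06 and -0.04 with MAP30. In both subunits every control array was above every MAP30 array. MRPS30 and MRPS18A carry small-subunit symbols but their proteins sit in the large subunit. With both moved, the large subunit had 13 higher and 27 lower of 49 with a median of -0.14, and the small subunit 5 higher and 15 lower of 25 with a median of -0.19.

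Genes with and without a bacterial homologue both had more falls than rises on the deposited scale; their difference was not tested either. Of 43 members counted with a bacterial homologue 25 fell and 9 rose (median -0.14). Of 31 counted as mitochondria-specific 17 fell and 9 rose (median -0.17). Among the 13 genes with small-subunit symbols that were counted as mitochondria-specific all passed, 8 lower and 5 higher, where 57.5% of all genes were called. In none of the 13 did the groups overlap, and in 62.6% of all genes they did not. The 13 include MRPS18A and MRPS30, both higher, whose proteins sit in the large subunit. They also include MRPS28 (-0.20, lower), although its protein is assigned to a family of bacterial ribosomal proteins. The counts with MRPS28 moved were not made.

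Among the proteins of the large subunit, the genes of the stalk, which recruits translation factors, moved in different directions. MRPL10, whose protein anchors the stalk, stood at -0.46, -0.50 and -0.46 in the control arrays and at 0.46, 0.46 and 0.49 with MAP30. The groups lay far apart and neither spread by more than 0.05. This gave the largest rise of the members, 0.95 ± 0.03 (log2, SE, n = 3 per group; limma adjusted p = 2.03e-07). MRPL12 encodes the stalk protein that MRPL10 carries and also binds the mitochondrial RNA polymerase. It stood at 0.11, 0.08 and 0.02 in control and at -0.03, -0.05 and -0.04 with MAP30, a log2 fold change of -0.11 ± 0.04 (limma adjusted p = 0.0317). Its groups did not overlap, but it lost its call when any 1 of 5 of the arrays was left out and with quantile normalization, and it was 0.05 without passing under poly-A-control centring. MRPL11, at the base of the stalk, fell by 0.32 (SE 0.04), with 1 of its 2 probe sets lower and the other not passing.

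The 3 largest falls of the large subunit were MRPL16, MRPL14 and MRPL34, each measured by 1 probe set. MRPL16, whose protein lies near the site where tRNAs bind, stood at 0.55, 0.44 and 0.51 in control and at -0.50, -0.46 and -0.44 with MAP30 (log2 fold change -0.97 ± 0.04 SE). MRPL14, whose protein faces the small subunit, stood at 0.51, 0.48 and 0.41 in control and at -0.53, -0.51 and -0.41 with MAP30 (-0.95 ± 0.05). In both genes the gap between the groups was many times the spread within them. MRPL34 was 0.47, 0.44 and 0.45 in control and -0.49, -0.44 and -0.47 with MAP30 (-0.92 ± 0.03). MRPL41 (-0.61), MRPL19 (-0.56), MRPL15 (-0.51), MRPL37 (-0.47) and MRPL51 (-0.44) followed among the falls. MRPL41, MRPL37 and MRPL51 encode mitochondria-specific proteins, MRPL19 and MRPL15 have bacterial homologues.

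Rises in the large subunit were led, after MRPL10, by MRPL46, a mitochondria-specific protein of the central protuberance. MRPL46 stood at -0.34, -0.31 and -0.38 in control and at 0.31, 0.33 and 0.34 with MAP30 (log2 fold change 0.67 ± 0.03 SE). MRPL58, a peptidyl-tRNA hydrolase that frees stalled ribosomes and is also a ribosomal protein, stood at -0.29, -0.29 and -0.28 in control and at 0.28, 0.36 and 0.29 with MAP30 (0.60 ± 0.04). In both genes all MAP30 arrays were above all control arrays, and both rose on all 3 scales. MRPL47 (0.51), whose protein borders the exit of the peptide tunnel, MRPL1 (0.47), of the stalk through which spent tRNAs leave, and MRPL21 (0.45) rose as well, also on all 3 scales. MRPL33 (0.29) and MRPL2 (0.26), whose protein lies near the catalytic centre, passed as deposited but stood at 0.06 and 0.02 without passing under hybridization-control centring.

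**Figure D3:**
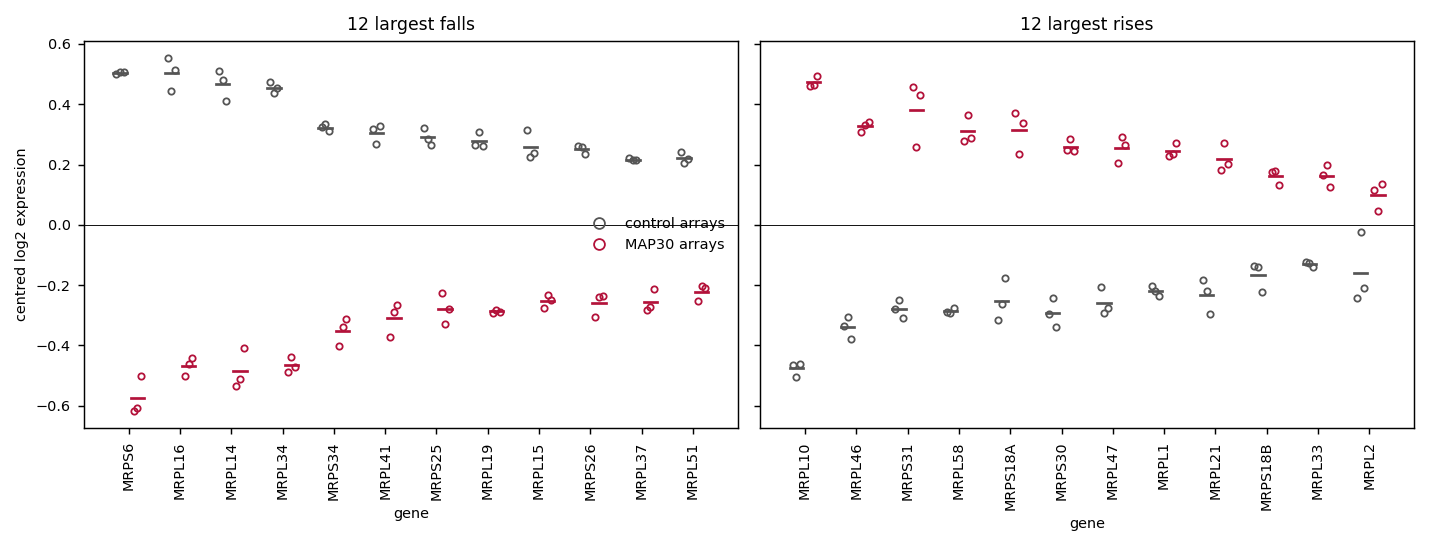
Centred log2 expression is plotted for each array (open circles; grey for the 3 control and red for the 3 MAP30 arrays) with the group mean as a bar, for the 12 members with the largest falls and the 12 with the largest rises. In each of these 24 genes the groups do not overlap; the means of MRPS6 are farthest apart, followed by those of MRPL16, MRPL14 and MRPL10, and MRPL2 has the widest control arrays, from -0.24 to -0.02.

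In the small subunit MRPS6 fell most. It encodes a protein of bacterial descent on the platform of the subunit and is read by 1 probe set. MRPS6 stood at 0.50, 0.51 and 0.51 in control and at -0.62, -0.61 and -0.50 with MAP30, 2.11-fold lower (log2 fold change -1.08 ± 0.04 SE; limma adjusted p = 3.03e-07). MRPS34, a mitochondria-specific protein, was 0.32, 0.33 and 0.31 in control and -0.40, -0.34 and -0.31 with MAP30 (-0.67 ± 0.04). In both genes the control arrays agreed within 0.03. MRPS25 (-0.57) and MRPS26 (-0.51), mitochondria-specific as well, completed the largest falls of this subunit.

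MRPS31, a mitochondria-specific protein of the subunit's head, rose most among the MRPS genes. It stood at -0.28, -0.25 and -0.31 in control and at 0.46, 0.26 and 0.43 with MAP30 (log2 fold change 0.66 ± 0.06 SE). The second MAP30 array was below the others in the gene's mean, and 1 of its 2 probe sets read -0.06 there against 0.40 and 0.28. That probe set did not pass (0.22), and the other rose by 1.10. MRPS30 rose by 0.55 (SE 0.04). It stood between -0.34 and -0.24 in control and between 0.24 and 0.28 with MAP30.

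The paralogues MRPS18A, MRPS18B and MRPS18C, whose proteins lie at different sites of the ribosome, were all higher. In the split by origin MRPS18C was counted with the bacterial homologues, and MRPS18A and MRPS18B, though its paralogues, as mitochondria-specific. MRPS18A stood at -0.32, -0.26 and -0.18 in control and at 0.37, 0.23 and 0.34 with MAP30 (log2 fold change 0.57 ± 0.05 SE). MRPS18B was -0.14, -0.14 and -0.22 in control and 0.18, 0.18 and 0.13 with MAP30 (0.33 ± 0.04). MRPS18C was -0.07, -0.08 and -0.12 in control and 0.13, 0.18 and 0.08 with MAP30 (0.22 ± 0.04). All probe sets of the 3 genes were called higher, 2, 2 and 3 of them. Only MRPS18A passed on all 3 scales: with hybridization-control centring MRPS18B stood at 0.09 and MRPS18C at -0.02 and neither passed. MRPS12, whose protein forms part of the decoding centre, ranged from -0.02 to 0.17 in control and from -0.05 to 0.04 with MAP30, so the groups overlapped, and it did not pass (-0.09 ± 0.05). It was called lower, at -0.32, under hybridization-control centring.

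The other 30 members called lower had log2 fold changes from -0.42 to -0.10 and the other 6 called higher from 0.13 to 0.22. The 14 that did not pass lay between -0.09 and 0.10. Of these, MRPL40, MRPL45, MRPL48 and MRPS11 had groups that did not overlap and 10 had groups that overlapped. Most of the largest falls came from genes read by a single probe set. The median size of the log2 fold change was 0.45 in the 28 members with 1 probe set and 0.20 in the 46 with several, while over all genes it was 0.15 and 0.23. Of the 12 largest falls 9, and of the 12 largest rises 6, rested on 1 probe set.

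In 7 of the 46 members with several probe sets (15.2%), at least 1 probe set was called higher and at least 1 lower, as in 7.24% of all such genes. These were MRPL9, MRPL43, MRPL52, MRPS5, MRPS11, MRPS25 and MRPS28. Which transcripts the probe sets read was not analysed here. For these genes the mean over probe sets stands for no single measured transcript.

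MRPL43, a mitochondria-specific protein of the large subunit, split evenly. Of its 6 probe sets 3 were lower, at -0.96, -0.88 and -0.76, and 3 higher, at 0.25, 0.33 and 0.41, which gave a mean of -0.27. The probe set with the largest fall stood at 0.44, 0.48 and 0.49 in control and at -0.56, -0.47 and -0.44 with MAP30. That with the largest rise stood at -0.25, -0.16 and -0.15 in control and at 0.15, 0.29 and 0.23 with MAP30. In each of the 6 the groups did not overlap. The gene passed as lower, but with classes _at and _a_at alone, the probe sets Affymetrix designed for a single gene, it stood at 0.06 and did not pass.

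MRPS11, a small-subunit protein of bacterial descent, held 3 probe sets that rose, at 0.58, 0.58 and 0.70, 2 that fell, at -0.88 and -0.47, and 1 that did not pass (0.12). Their mean was 0.10 and did not pass (limma adjusted p = 0.0572); the median over probe sets passed. In MRPS25 the probe sets ran from -1.57 to 0.17, with 3 lower, 1 higher and 1 that did not pass. The widest of these stood at 0.85, 0.97 and 0.71 in control and at -0.73, -0.71 and -0.73 with MAP30, the largest difference of any single probe set of the members. MRPL52 had 4 probe sets higher, at 0.16 to 0.22, and 1 lower, at -0.83. Its mean of -0.02 did not pass, and the median over probe sets was 0.15 and passed. MRPS5 (-0.78, 0.04 and 0.14), MRPS28 (-0.53 and 0.13) and MRPL9 (-0.37, -0.02, 0.02 and 0.17) each held 1 probe set that fell and 1 that rose. The fall of MRPS5 as a gene, -0.20, rested on 1 of its 3 probe sets, which read 0.73, 0.20 and 0.35 in control, and the median over them was 0.04.

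**Figure D4:**
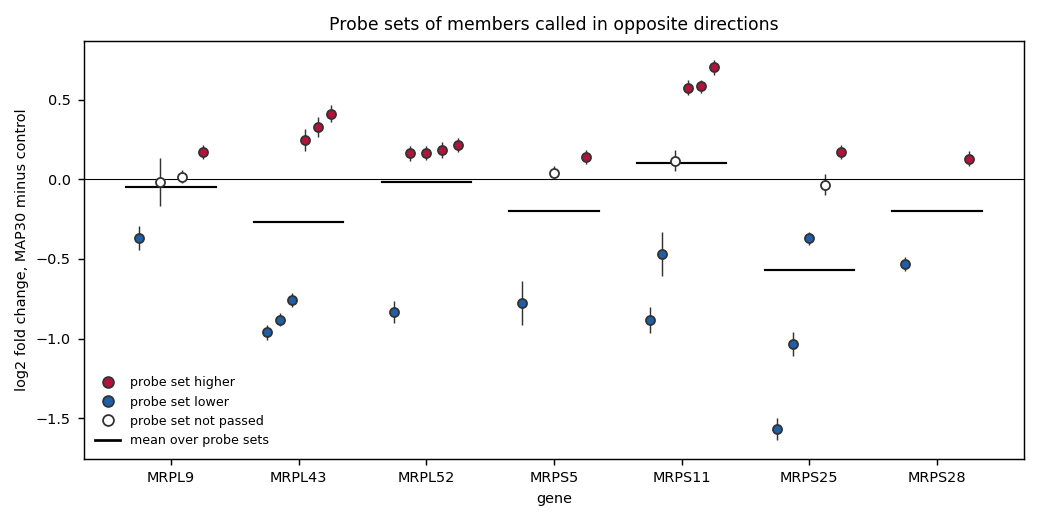
Each point is the log2 fold change of MAP30 over control for 1 probe set of the 7 members whose probe sets were called in opposite directions, with the standard error from limma as bars and the mean over probe sets as a black line. Blue points were lower, red higher and white did not pass; in MRPL52 the mean of -0.02 lies between 1 probe set at -0.83 and 4 above 0.

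Promoters of some members are shown to give the letters counted here in their place before genes of either direction. RefSeq windows of 300 bases (build GRCh38.p14, from 250 before to 50 after a start) were found for 67 of the 74 members, 83 windows in all. The letters CCGGAAG, bound by ETS factors such as GABP, stood on either strand in windows of 29 of the 67 (43.3%) and of 16.9% of 14425 measured genes with a window. Cytosolic ribosomal protein genes held them in 37.1% and genes of the respiratory chain and ATP synthase in 29.9%. Of the 29 members with the letters 16 were lower and 9 higher (median -0.14). Of the 38 without, 22 were lower and 6 higher (median -0.17). Of all 2438 measured genes with the letters 846 were lower and 950 higher (73.7% called, median 0.02), and of the 11987 without 3689 were lower and 3104 higher (median -0.02). The palindromic consensus of the factor NRF1 stood in the window of 1 member, MRPL17 (-0.14), and in those of 2.08% of all measured genes with a window. The 250 bases before the start of a pair of members that fell, MRPS34 (-0.67) and MRPS26 (-0.51), and of a pair that rose, MRPS31 (0.66) and MRPL58 (0.60), are given 5′ to 3′ in the direction of the gene, with CCGGAAG or its reverse complement in capitals. They were chosen after their values were seen.
MRPS34 (chr16:1773135-1773384, minus strand): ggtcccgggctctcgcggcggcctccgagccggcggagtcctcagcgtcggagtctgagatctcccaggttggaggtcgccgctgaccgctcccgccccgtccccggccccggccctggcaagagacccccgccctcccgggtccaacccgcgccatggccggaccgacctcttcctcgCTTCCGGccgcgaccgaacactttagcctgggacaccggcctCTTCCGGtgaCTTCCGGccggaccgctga
MRPS26 (chr20:3045802-3046051, plus strand): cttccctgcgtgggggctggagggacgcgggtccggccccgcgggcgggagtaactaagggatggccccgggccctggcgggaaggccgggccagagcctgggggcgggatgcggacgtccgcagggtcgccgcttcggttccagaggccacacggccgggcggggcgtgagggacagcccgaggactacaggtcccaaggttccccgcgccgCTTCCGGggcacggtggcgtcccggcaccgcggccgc
MRPS31 (chr13:40771191-40771440, minus strand): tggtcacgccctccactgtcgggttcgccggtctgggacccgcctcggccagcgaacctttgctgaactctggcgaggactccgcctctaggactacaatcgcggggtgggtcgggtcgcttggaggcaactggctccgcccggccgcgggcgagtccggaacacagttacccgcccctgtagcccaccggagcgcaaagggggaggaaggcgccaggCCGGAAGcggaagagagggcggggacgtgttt
MRPL58 (chr17:75012420-75012669, plus strand): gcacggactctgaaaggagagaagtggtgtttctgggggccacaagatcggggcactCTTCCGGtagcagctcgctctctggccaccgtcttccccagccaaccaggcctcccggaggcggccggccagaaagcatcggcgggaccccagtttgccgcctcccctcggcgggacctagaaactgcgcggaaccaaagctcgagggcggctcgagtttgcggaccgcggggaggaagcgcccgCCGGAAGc
The letters occur 3 times before MRPS34, 1 time each before MRPS26 and MRPS31, and 2 times before MRPL58.

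Some members start near a neighbour on the opposite strand. Of the 67 members with a RefSeq window 25 had such a head-to-head neighbour within 1000 bases, which gave 19 pairs with both genes measured. The share of all genes with such a neighbour was not counted. In 14 pairs both genes were called, in 8 of them in the same direction (6 lower, 2 higher) and in 6 in opposite directions. Single genes were called in 57.5% of all genes and 81.1% of members. MRPS11 and MRPL46 face each other across 320 bases; MRPL46 rose while MRPS11 did not pass. The following neighbours were chosen after their values were seen, and values are log2 fold changes. HELQ, a DNA helicase gene, was at 1.99 beside MRPS18C (0.22), and PPP1R10, a phosphatase regulator, at 2.23 beside MRPS18B (0.33). These are the only 2 pairs with both genes higher. Among the 6 pairs with both lower, PIERCE1 was at -1.60 beside MRPS2 (-0.16) and NCAPD2 at -1.05 beside MRPL51 (-0.44). Against this, the zinc finger gene ZNF189 rose by 1.42 while MRPL50 fell by 0.30, and MITD1 rose by 1.04 while MRPL30 fell by 0.15.

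The protein genes of this ribosome outside the naming rule were few. Of 4 measured, CHCHD1 (-0.77 ± 0.04 SE) and GADD45GIP1 (-0.19 ± 0.04) fell, while DAP3 (0.03) and PTCD3 (-0.08) did not pass. Centred on hybridization controls all 4 were lower. Centred on poly-A controls DAP3 was higher (0.19), CHCHD1 lower, and the other two did not pass. KGD4, once named MRPS36 and known as a subunit of the oxoglutarate dehydrogenase complex, was at -0.06 and did not pass.

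The factors that build and serve this ribosome moved in both directions. Of 28 measured assembly factors 14 rose and 13 fell (96.4% called, against 57.5% of all genes), with a median log2 fold change of 0.10. RBFA, which acts on the small subunit, fell by 0.89, and METTL15, which methylates its RNA, rose by 0.80. MTG2, a GTPase of large-subunit assembly, rose by 0.78, and MPV17L2, also of that subunit, fell by 0.66. MALSU1, whose protein binds MRPL14 during assembly and which was chosen after its value was seen, fell by 0.62. With hybridization-control centring 9 assembly factors were higher and 14 lower, while poly-A-control centring gave 15 and 9.

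Of 13 measured translation factors 6 rose and 6 fell (92.3% called, median 0.04). MRRF, the ribosome recycling factor, rose 3.21-fold (1.68 ± 0.04 SE) and MTRF1L, a release factor, 2.25-fold (1.17 ± 0.03). MTRFR, which rescues stalled ribosomes, fell by 0.78, and TSFM, the exchange factor of the elongation factor, by 0.62. With hybridization-control centring 3 were higher and 7 lower, while poly-A-control centring gave 7 and 5.

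Of 9 genes of mitochondrial DNA transcription and replication 3 rose and 3 fell (66.7% called, against 57.5% of all genes). The smallest called fall, MTERF1 (-0.12), lay at the threshold (limma adjusted p = 0.0497). With any 1 array left out, 3 genes of this list were called higher and 2 lower. TFB2M (0.63), a transcription factor of mitochondrial DNA, TWNK (0.58), its helicase, and POLG2 (0.49), a polymerase subunit, were higher, and POLRMT (-0.18), the RNA polymerase, was lower. With hybridization-control centring 3 were higher and 6 lower, while poly-A-control centring gave 6 and 0. Of 8 measured nuclear regulators of mitochondrial genes 4 rose and 2 fell (75% called, against the same 57.5%). The coactivator genes PPARGC1A (1.04) and PPRC1 (0.77) and MYC (0.62) were higher, and YY1 (-0.87) lower. The other calls were NRF1 (-0.47), lower, and GABPA (0.17), the DNA-binding subunit of GABP, higher; both are named here for the promoter letters given above. With hybridization-control centring 3 regulators were higher and 4 lower, while poly-A-control centring gave 5 and 2. The mRNAs of mitochondrial DNA were not analysed here, since 0 of 13 had a probe set with its symbol alone.

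The same readout was set beside that of the cytosolic ribosome and of the respiratory chain. Of 74 cytosolic ribosomal protein genes 25 were higher and 10 lower (47.3% called, against 57.5% of all genes and 81.1% of members). Their median log2 fold change was 0.06, against -0.14 in the mitochondrial set of the same size. Without control replicate 1 or control replicate 3 only 16 of the cytosolic genes were higher, and with classes _at and _a_at alone 12 were. Of 83 genes of the respiratory chain and ATP synthase 11 were higher and 52 lower (75.9% called), median -0.20. Under hybridization-control centring the counts were 5 higher and 49 lower for the cytosolic genes and 2 and 71 for the respiratory genes, and under poly-A-control centring 61 and 2, and 25 and 30. The order of these medians cannot change between the 3 scales. The differences between these lists were not tested.

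**Figure D5:**
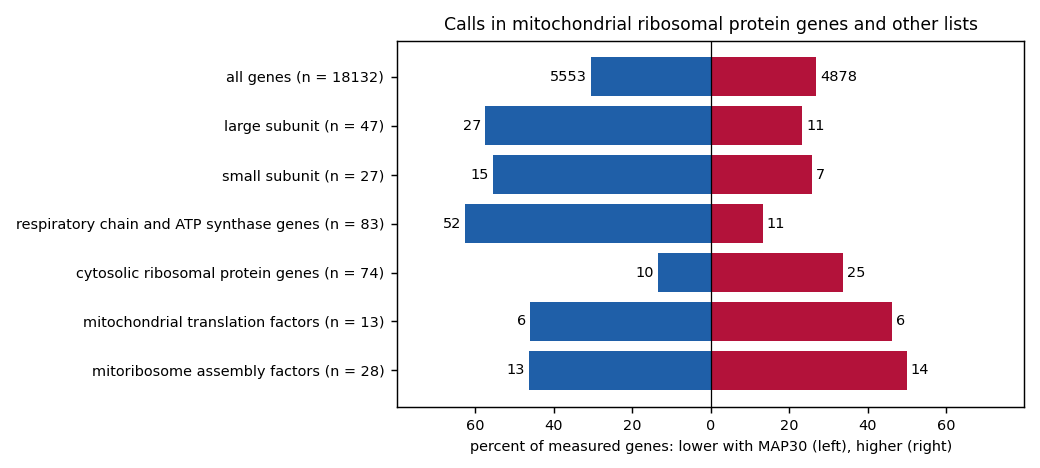
Bars give the percent of measured genes called lower (left, blue) or higher (right, red) with MAP30 on the deposited scale, with the counts of genes at their ends. Both subunits of the mitochondrial ribosome have more genes lower than higher (27 against 11 and 15 against 7), the cytosolic ribosomal proteins more higher (25 against 10).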

How the data were processed

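Log2 expression of 49395 probe sets on 6 arrays was taken from the table the authors deposited. RMA and MAS5 are named in the submitters' processing notes without role or version, and no source used here gives the base of the logarithm; it was taken as 2, the scale of RMA, and all folds rest on that. Per the labels' protocols, RNA was amplified with a 3'-based kit and labelled with biotin. Medians over the 6 arrays are 0 for every probe set to within 5e-07.

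Through the platform annotation 44988 probe sets had 1 gene symbol, 1832 several and 2473 none, and 102 were controls. Single-symbol probe sets were averaged per gene (18132 genes). MAP30 was compared with control by limma 3.58.1 in R 4.3.3 (lmFit, eBayes, two-sided, Benjamini-Hochberg over all genes, threshold 0.05), with no further normalization and no filter; single probe sets were fitted the same way over all 44988. The fit was tested on simulated data. Python 3.11.15 with scipy 1.17.1, numpy 2.4.6 and pandas 2.3.3 made the tables, and matplotlib 3.10.9 the figures. The number of arrays limits the precision.

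Named were the 12 largest rises and 12 largest falls among members that passed without overlap, a fixed set (MRPL10, MRPL11, MRPL12, MRPS12, MRPS18A, MRPS18B, MRPS18C, MRPS30, MRPL58 and MRPS36), members with opposed probe sets, all proteins with other names, and up to 4 called genes of each other list. Members and lists were chosen with earlier results of these data known. Sequences are from RefSeq.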

Additional observations from a re-analysis of the deposited data

How the results depend on the processing

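The counts and medians were recomputed under 14 alternatives and, for the subunit medians, a 15th grouping by the protein's place. Counts were 17 to 18 higher and 37 to 41 lower when each array was left out in turn, and the medians ran from -0.16 to -0.13 for all members, from -0.15 to -0.12 for the large and from -0.19 to -0.14 for the small subunit. Scaling moved them most: 9 higher with hybridization-control centring, 28 higher and 23 lower with poly-A-control centring, and medians of -0.38 and 0.013 for all members, -0.38 and 0.016 for the large and -0.40 and -0.0048 for the small subunit. The median of all members was -0.12 with class _at or _a_at probe sets and -0.12 with quantile normalization. That of the large subunit was -0.12 with the median over probe sets, -0.066 with class _at or _a_at probe sets and -0.11 with quantile normalization. MRPL34, MRPL41 and MRPS18B have no probe set of class _at or _a_at, so the counts and medians for these classes cover fewer genes. The cause of these shifts was not tested.

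Of 473 values of the 34 named members under these alternatives, 443 kept direction and call, 14 lost and 6 gained a call and 10 changed sign. Sign changes were, with poly-A-control centring, MRPL9 (0.11), MRPL12 (0.048), MRPL52 (0.14) and MRPS12 (0.069); with hybridization-control centring, MRPS11 (-0.13) and MRPS18C (-0.015); with the median over probe sets, MRPL52 (0.15) and MRPS5 (0.041); and with class _at or _a_at probe sets, MRPL43 (0.057) and MRPL52 (0.18).

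Leaving out 1 array changed the limma call of 8 members. MRPL12 lost its call without MAP30 replicate 1 (-0.11), MAP30 replicate 2 (-0.11), MAP30 replicate 3 (-0.11), control replicate 1 (-0.09), control replicate 2 (-0.11). MRPL17 lost its call without MAP30 replicate 1 (-0.13), MAP30 replicate 2 (-0.12), control replicate 2 (-0.12), control replicate 3 (-0.13). MRPL28 lost its call without MAP30 replicate 1 (-0.09), MAP30 replicate 2 (-0.10), control replicate 1 (-0.09), control replicate 2 (-0.11), control replicate 3 (-0.10). MRPL38 lost its call without control replicate 2 (0.12). MRPL44 lost its call without MAP30 replicate 2 (0.12). MRPS11 gained its call without MAP30 replicate 2 (0.13). MRPS2 lost its call without MAP30 replicate 1 (-0.14), MAP30 replicate 2 (-0.15), control replicate 2 (-0.14). MRPS5 lost its call without MAP30 replicate 1 (-0.19), MAP30 replicate 2 (-0.19).

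Same-numbered arrays did not pair: the deviations of control and MAP30 arrays from their group means correlated at -0.04, 0.07 and 0.01 over genes for numbers 1, 2 and 3. With the replicate block 18 members were higher and 40 lower, with the median unchanged at -0.14 (large subunit -0.14, small -0.16); MRPL12 and MRPL28 lost their calls.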

Other observations

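MRPL23, MRPL53 and MRPS24, which the rule left out, were measured by probe sets with several symbols. The probe set of MRPL23, whose symbol is listed for 2 gene entries, stood at 0.21, 0.25 and 0.20 in control and at -0.24, -0.23 and -0.20 with MAP30. That shared by MRPS24 and a readthrough gene stood at 0.05, 0.08 and 0.05 in control and at -0.09, -0.06 and -0.05 with MAP30. The 2 probe sets shared by MRPL53 and CCDC142 were higher with MAP30, by 0.29 and 0.67. In each of the 4 probe sets the groups did not overlap. With these included, 19 of 77 members were higher and 44 lower.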
